A study of Drosophila melanogaster with 13 samples.

Results

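The genes described here encode the machinery that copies DNA in Drosophila, together with ribonucleotide reductase, which supplies its building blocks, and the E2F factors that regulate many of these genes. The rule lists 38 symbols and uses no cutoff on their values, and all 38 had a row in both deposited tables, of 8475 rows in the siARMI table and 8480 in the siYB table. They covered the origin recognition complex, the factors that load the replicative helicase, the helicase and its activators, the sliding clamp and its loader, polymerases and their partners, ribonucleotide reductase and E2F.

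Transcripts were sequenced from OSC, ovarian somatic cells in culture, a line of follicle-cell origin that keeps the somatic piRNA pathway. Cells were transfected with small interfering RNA against Armitage (siARMI, gene armi) or against Yb (siYB, gene fs(1)Yb), and control cells with one against luciferase, which the cells lack (siLUC), with 3 libraries each. All 9 libraries came from cells labelled wildtype in genotype, transfected at 0 and 48 h, harvested at 96 h, and were poly(A)-selected per the labels' protocols; their titles also carry the tag RZ, which the labels do not explain. The deposited tables give, for each knockdown against siLUC, a mean normalised read count over both groups together, a log2 fold change and its error, and p-values before and after adjustment, but no value per library.

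Replication is prepared in G1, when the origin recognition complex (ORC), Cdc6 and the Cdt1 protein load the MCM helicase onto DNA. In S phase the kinase Cdc7 and other factors let Cdc45 and the GINS complex join MCM, and the active helicase then opens the double strand for the polymerases. Many of the genes involved are transcribed under E2F control, and their transcripts are most abundant in cycling cells. In bulk RNA fewer cells of a type, or of a cell cycle phase, and less RNA per cell cannot be told apart.

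The targeted transcripts were lower in their own comparisons, armi at −1.92 ± 0.07 in siARMI cells and fs(1)Yb at −2.17 ± 0.51 in siYB cells (log2 fold change ± deposited error against siLUC, the authors' deposited tables). In siARMI cells 13.4% of all rows were called lower and 15.2% higher. Of 10 follicle cell markers all had a row, and 4 were called lower and 4 higher in siARMI cells. Those lower were piwi at −0.52 ± 0.08, mirr at −0.49 ± 0.12, tj at −0.30 ± 0.07 and fs(1)Yb at −0.26 ± 0.07, and those higher were ct at 2.53 ± 0.17, cas at 2.53 ± 0.20, Fas3 at 2.13 ± 0.18 and eya at 1.15 ± 0.11 (log2 fold change, the authors' deposited siARMI table). Their summed implied level, in which tj and piwi were the largest terms, was 17981 in siARMI cells and 18125 in siLUC cells, so the sum does not show these changes. Of 10 germ cell markers 7 had a row (not nos, otu and zpg), with mean normalised counts from 2.29 to 78.0 in the authors' deposited siARMI table, and of 10 markers of muscle, neurons and hemocytes 7 had a row (not up, Hml and NimC1), with counts from 1.74 to 337. In siARMI cells AGO3 (1.82 ± 0.25) and osk (1.29 ± 1.43, at a mean normalised count of 5.05) of the germ cell markers and Mhc (1.08 ± 0.27) and srp (1.05 ± 0.19) of the other markers were called higher, and 0 of either list lower (2 germ cell markers lower at an unadjusted p under 0.05, the authors' deposited table). The summed level implied for the germ cell markers was 162 in siARMI cells and 81.3 in siLUC cells, of which AGO3 gave 122 in siARMI cells and 34.4 in siLUC cells, and that of the muscle, neuron and hemocyte markers was 946 in siARMI cells and 696 in siLUC cells. Their part in the results below was not tested.

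Genes of the replication machinery were lower together after Armitage knockdown. Of the 38 members 26 fell, 0 rose and 12 did not pass the test at an adjusted p of 0.05 (Benjamini-Hochberg over all rows, the authors' deposited table). At an unadjusted p under 0.05 the counts were 27 lower and 0 higher, and the estimate was below 0 in all 38. Of the 8367 rows with a p-value in each comparison, 4303 had a siARMI estimate below 0. Over all 8473 rows with a p-value 13.4% were called lower and 15.2% higher, or 28.6% in either direction. At an unadjusted p under 0.05 the shares of all rows were 17.9% lower and 19.4% higher. These shares are the background for the counts by role below. The median log2 fold change was −0.39 over the members and −0.01 over the 8367 rows tested in both tables. At an adjusted p under 0.01 23 members were lower and 0 higher, where 9.54% of all rows were lower and 11.3% higher. At 0.1 27 members were lower and 0 higher, against 16.5% and 18.1% of all rows. With a log2 fold change of at least 0.5 in size required as well, 9 members were lower and 0 higher, against 6.01% and 7.79% of all rows. The largest of these falls, that of Mcm3, corresponded to 61.6% of the siLUC level.

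**Figure D1:**
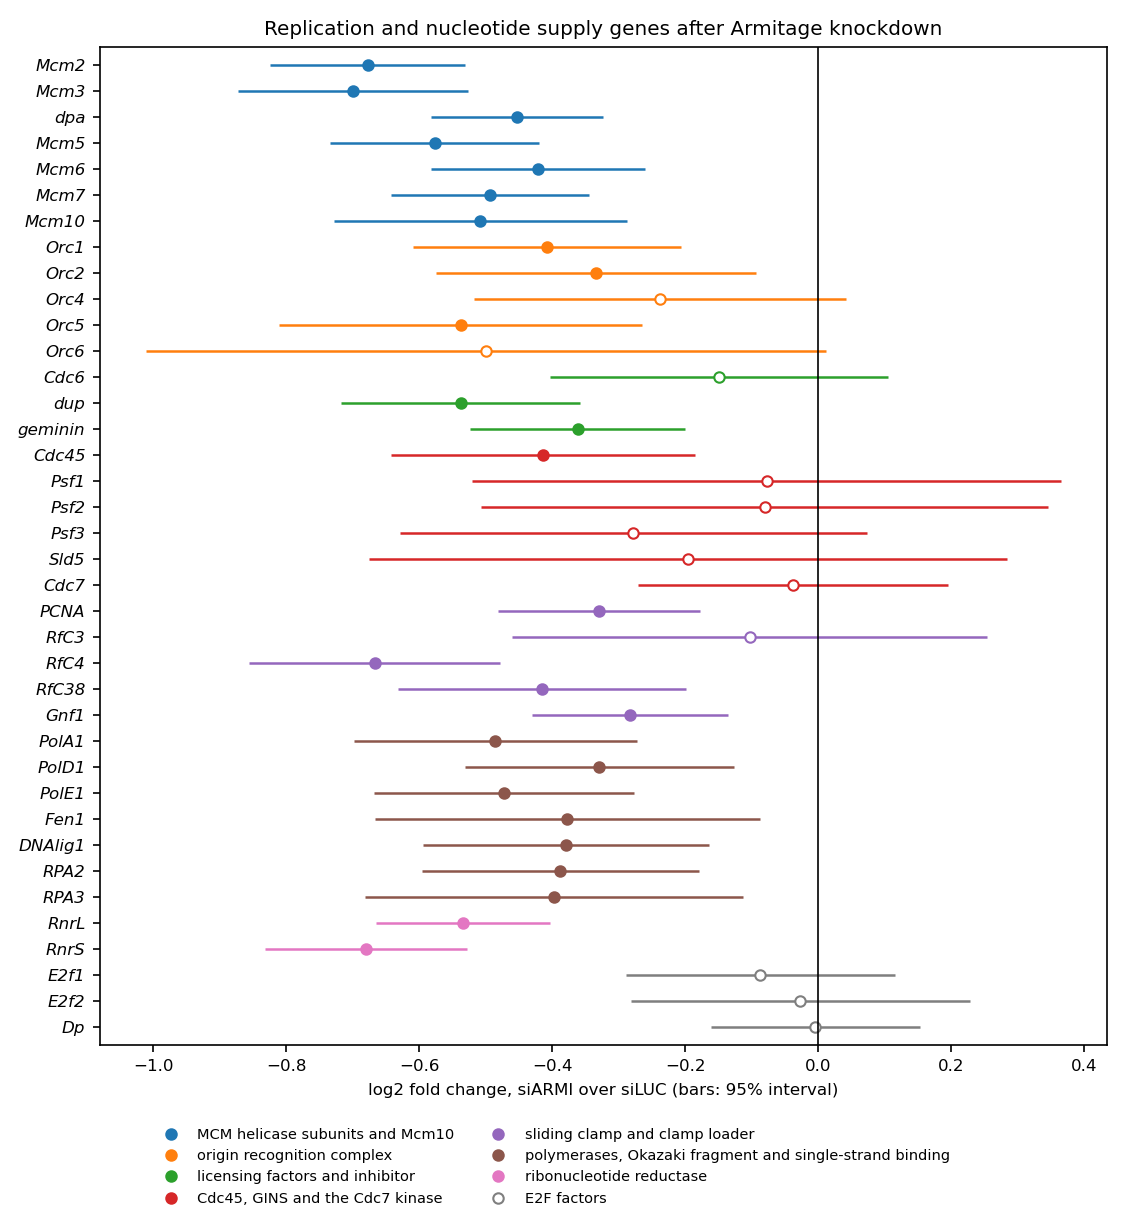
Log2 fold change of each of the 38 members in siARMI over siLUC cells, with 95% normal intervals from the deposited error; colours mark roles, filled points passed the test (26 members) and open points did not (12). All points lie below 0, and Dp lies nearest to it.

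The MCM helicase is the ring that unwinds DNA at the fork. All 6 measured subunits of the ring fell, as did Mcm10, a factor that binds the helicase and helps to activate it, so that 7 of 7 genes in that list were lower. In the authors' deposited table Mcm3 stood at −0.70 ± 0.09 (adjusted p = 1.53e-14, Benjamini-Hochberg) and Mcm2 at −0.68 ± 0.07 (adjusted p = 1.39e-18). Mcm5 followed at −0.58 ± 0.08, Mcm10 at −0.51 ± 0.11 and Mcm7 at −0.49 ± 0.08 in the authors' deposited table. The smallest falls were those of dpa, which encodes the Mcm4 subunit, at −0.45 ± 0.07, and Mcm6 at −0.42 ± 0.08 in the authors' deposited table. The 95% intervals of the highest and lowest of these estimates overlapped, from −0.87 to −0.53 for Mcm3 and from −0.58 to −0.26 for Mcm6, and differences between subunits were not tested.

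A mean over both groups and their ratio together imply a level for each group. The implied mean normalised count of Mcm2 was 1485 in siARMI cells and 2375 in siLUC cells, and that of Mcm3 was 1403 in siARMI cells and 2278 in siLUC cells. Summed over the 6 ring subunits it was 7568 in siARMI cells and 11179 in siLUC cells. Levels per kilobase of the longest annotated transcript allow genes to be compared only if that transcript is the one expressed. On this scale the subunits ranged from 360 to 582 in siARMI cells and from 483 to 829 in siLUC cells. The highest subunit was thus 1.62 times the lowest in siARMI cells and 1.72 times in siLUC cells; the subunits are known to occur in equal numbers in the ring. These levels carry no error, as none can be had without values per library.

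The MCM genes are dispersed in the genome. Mcm2 (FBgn0014861) lies on chromosome 3R at 8264970 to 8267924, plus strand, and Mcm3 (FBgn0284442) on chromosome X at 5323855 to 5326738, plus strand (both in the BDGP6.54 annotation from Ensembl). Mcm5 (FBgn0017577) lies on chromosome 3R at 10788524 to 10791150, plus strand, Mcm6 (FBgn0025815) is a single-exon gene on chromosome X at 6674387 to 6677176, plus strand, and Mcm7 (FBgn0020633) lies on chromosome 3L at 8891596 to 8894310, plus strand, in the same annotation. Over all 38 members 6 lay on X, 8 on 2L, 11 on 2R, 5 on 3L and 8 on 3R.

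Origin recognition and helicase loading were lower in part. Of 5 ORC subunit genes, whose products mark the origins, 3 fell and 2 did not pass. Orc5 was lower at −0.54 ± 0.14, Orc1 at −0.41 ± 0.10 and Orc2 at −0.33 ± 0.12 (adjusted p = 0.0179, Benjamini-Hochberg, the authors' deposited table). Orc6 had an estimate of −0.50 ± 0.26 with a mean normalised count of 55.9 (adjusted p = 0.0639), and Orc4 one of −0.24 ± 0.14 (adjusted p = 0.184, Benjamini-Hochberg, the authors' deposited table).

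Of the 3 licensing genes, dup (double parked), which encodes Cdt1, fell at −0.54 ± 0.09 (adjusted p = 2.9e-08), and geminin, the inhibitor of Cdt1, fell at −0.36 ± 0.08 (adjusted p = 6.57e-05, Benjamini-Hochberg, the authors' deposited table). The loader and its inhibitor were therefore both lower. The implied level of geminin per kilobase was 3.01 times that of dup in siARMI cells and 2.66 times in siLUC cells. Cdc6, the ATPase that brings Cdt1 and MCM to ORC, was at −0.15 ± 0.13 and did not pass (adjusted p = 0.402, Benjamini-Hochberg, the authors' deposited table).

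Of the 6 genes for helicase activation 1 passed. Cdc45, which completes the active helicase together with GINS, fell at −0.41 ± 0.12 (adjusted p = 0.00128, Benjamini-Hochberg, the authors' deposited table). Of the 4 GINS subunit genes 0 passed in either direction, also at an unadjusted p under 0.05. As 28.6% of all rows were called in either direction, 0 of 4 GINS genes by itself says little. Their estimates were −0.28 ± 0.18 for Psf3, −0.20 ± 0.24 for Sld5, −0.08 ± 0.22 for Psf2 and −0.08 ± 0.23 for Psf1 in the authors' deposited table. These 4 genes were among the least abundant members, with mean normalised counts from 50.4 to 122 in the authors' deposited table, and their errors were from 0.18 to 0.24. The interval for Psf1, from −0.52 to 0.37, included the estimate of Mcm7. A change of that size and none at all could not be told apart for Psf1 at this precision.

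Cdc7, the kinase gene of this step, was measured more precisely and stood near 0. Its log2 fold change was −0.04 ± 0.12 with a mean normalised count of 477 (adjusted p = 0.848, Benjamini-Hochberg, the authors' deposited table), and its 95% interval ran from −0.27 to 0.19. Its implied level was 471 in siARMI cells and 483 in siLUC cells. Among the other genes listed, its partner chif (chiffon, the fly Dbf4) was at 0.02 ± 0.10 and did not pass (adjusted p = 0.899, Benjamini-Hochberg, the authors' deposited table).

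The sliding clamp and its loader were lower in 4 of 5 genes. PCNA, the ring that keeps polymerases on DNA, fell at −0.33 ± 0.08 (adjusted p = 1.17e-04, Benjamini-Hochberg, the authors' deposited table). It had the highest implied level per kilobase of all members, at 1517 in siARMI cells and 1906 in siLUC cells. Of the loader subunits RfC4 fell most, at −0.67 ± 0.10 (adjusted p = 2.46e-11), followed by RfC38 at −0.42 ± 0.11 and the large subunit Gnf1 at −0.28 ± 0.08 (Benjamini-Hochberg, the authors' deposited table). RfC3 was at −0.10 ± 0.18 with a mean normalised count of 103 and did not pass (adjusted p = 0.694, Benjamini-Hochberg, the authors' deposited table).

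Polymerase subunits, the enzymes that finish the lagging strand and subunits of the single-strand binding protein fell in 7 of 7 cases. The catalytic subunit genes were lower, PolA1 of the priming polymerase at −0.49 ± 0.11, PolE1 at −0.47 ± 0.10 and PolD1 at −0.33 ± 0.10 in the authors' deposited table. Fen1, the flap endonuclease that trims Okazaki fragments, was lower at −0.38 ± 0.15, and DNAlig1, the ligase that joins them, at −0.38 ± 0.11 in the authors' deposited table. Of the subunits of the single-strand binding protein, RPA3 was lower at −0.40 ± 0.14 and RPA2 at −0.39 ± 0.11 in the authors' deposited table. These 7 estimates lay close together, between −0.49 and −0.33. The adjusted p of Fen1 was 0.0246 and that of RPA3 was 0.0147, the largest adjusted p-values of the 7 (Benjamini-Hochberg, the authors' deposited table).

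Both subunits of ribonucleotide reductase, which makes deoxyribonucleotides from ribonucleotides, fell. RnrS, the small subunit, was lower at −0.68 ± 0.08 (adjusted p = 1.46e-17), and RnrL, the large subunit, at −0.53 ± 0.07 (adjusted p = 1.38e-14, Benjamini-Hochberg, the authors' deposited table). RnrL (FBgn0011703) lies on chromosome 2L at 10325026 to 10327943, minus strand (BDGP6.54). The implied level of RnrS was 1020 in siARMI cells and 1633 in siLUC cells, and that of RnrL was 1613 in siARMI cells and 2336 in siLUC cells. Per kilobase the small subunit stood at 1.02 times the large one in siARMI cells and 1.13 times in siLUC cells.

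Of the 3 E2F genes 0 passed in either direction in the authors' deposited table, also at an unadjusted p under 0.05. As 28.6% of all rows were called in either direction, 0 of 3 by itself says little. The log2 fold change was −0.09 ± 0.10 for E2f1, the activator, −0.03 ± 0.13 for E2f2, the repressor, and −0.00 ± 0.08 for their partner Dp in the authors' deposited table. Dp was one of the more abundant members, with a mean over both groups of 1434 normalised counts in the authors' deposited table, and its 95% interval ran from −0.16 to 0.15. The intervals of 21 members, among them all 7 of the MCM list, lay wholly below that of Dp. This count depends on Dp, which had the narrowest interval of the 3 and the estimate nearest 0 of all members. The interval of E2f1 ran from −0.29 to 0.11 and overlapped those of Mcm6 and Mcm10. The share of all rows below Dp was not computed, so the count of 21 has no background and sets no member apart. A difference between genes was not tested, since covariances between rows are not given.

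**Figure D2:**
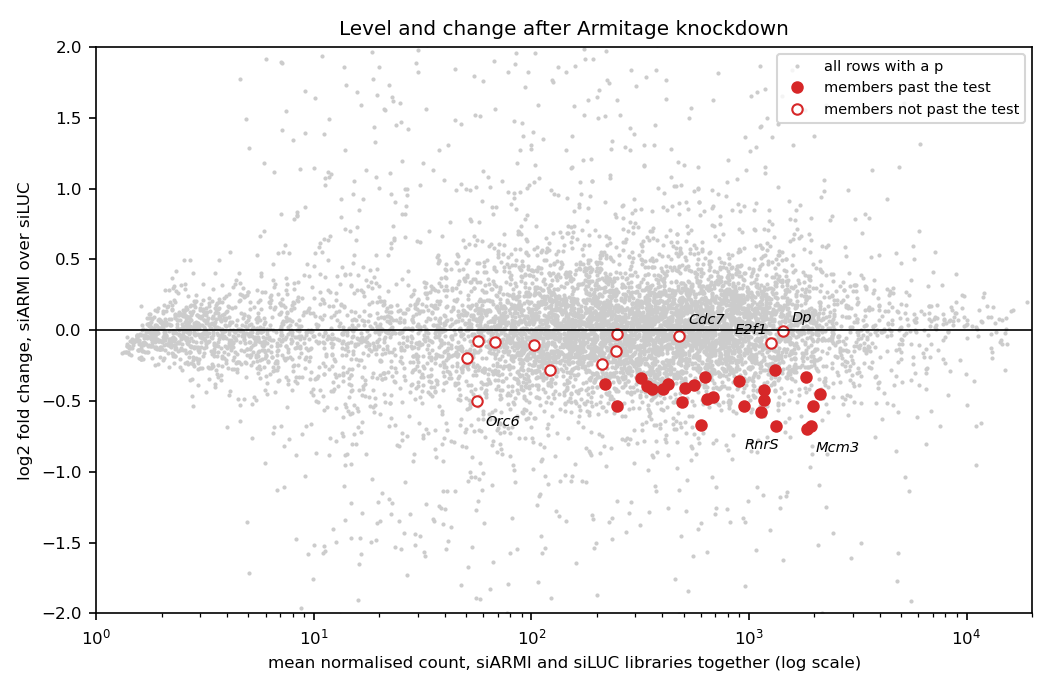
Log2 fold change in siARMI over siLUC cells against the mean normalised count (log axis) for all rows with a p-value (grey; 225 rows lie outside the plotted range) and the 38 members (red; open where they did not pass). The members that passed form a band below 0 from a count of about 217 upward, and those under the table's median count of 217 are all open.

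Whether a member passed went along with its level. Of the 7 members under the table's median mean normalised count of 217, 0 passed (1, Orc6, had an unadjusted p under 0.05, and their median log2 fold change was −0.20), and of the 31 at or above it 26 fell. Among all rows at or above that median 19.0% were called lower and 20.1% higher. The 5 abundant members that did not pass were Cdc6, Cdc7, E2f1, E2f2 and Dp, whose errors were between 0.08 and 0.13 in the authors' deposited table. Estimates at low counts may have been pulled toward 0, which was not tested.

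Further genes of the fork were listed beside the members. Of all rows 13.4% were called lower and 15.2% higher, and 17.9% and 19.4% were so at an unadjusted p under 0.05. Of 27 further replisome and fork genes 16 fell and 0 rose, with 21 lower and 0 higher at an unadjusted p under 0.05. Their median log2 fold change was −0.36 (the authors' deposited table). By size the leading ones were PolD2, the second subunit of polymerase delta, at −0.77 ± 0.12, Caf1-180, the large subunit of the chromatin assembly factor, at −0.56 ± 0.13, Dna2, the helicase-nuclease listed as CG2990, at −0.56 ± 0.15, and Prim2, the large primase subunit, at −0.52 ± 0.14 in the authors' deposited table. The 3 genes of this list with an estimate above 0 were Top1, Cul4 and chif, none past the test and named after their values were seen.

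In nucleotide synthesis 9 of 20 measured genes outside ribonucleotide reductase fell, 3 rose and 8 did not pass (the authors' deposited table), out of 22 listed. Of all rows 13.4% were called lower and 15.2% higher, so the count of rises was near the background. The largest falls were those of Ts, thymidylate synthase, at −0.80 ± 0.13, CTPsyn, which makes CTP, at −0.79 ± 0.11, dUTPase, which removes dUTP, at −0.60 ± 0.07, and dnk, the deoxyribonucleoside kinase, at −0.57 ± 0.12 in the authors' deposited table. The genes that rose, named after their values were seen, were AdSL of purine synthesis at 0.41 ± 0.13, the folate enzyme gene Nmdmc at 0.34 ± 0.12, and Prps, which makes the ribose phosphate donor, at 0.32 ± 0.10 in the authors' deposited table.

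Among 14 genes of G1 to S control 4 fell, 1 rose and 9 did not pass (the authors' deposited table). With 28.6% of all rows called in either direction, these counts are too small to set the list apart from that background. The phosphatase gene stg, best known for driving entry into mitosis, was lower at −1.17 ± 0.10, the retinoblastoma family gene Rbf2 at −0.45 ± 0.15 and the Cyclin E inhibitor dap at −0.31 ± 0.10, while mip130, of the same repressor complex as E2f2, rose by 0.32 ± 0.09 in the authors' deposited table. CycE, which drives entry into S phase, fell at −0.28 ± 0.11 (adjusted p = 0.0385, Benjamini-Hochberg, the authors' deposited table), and its partner Cdk2 was at −0.27 ± 0.14 and did not pass (adjusted p = 0.117); both were named after their values were seen.

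**Figure D3:**
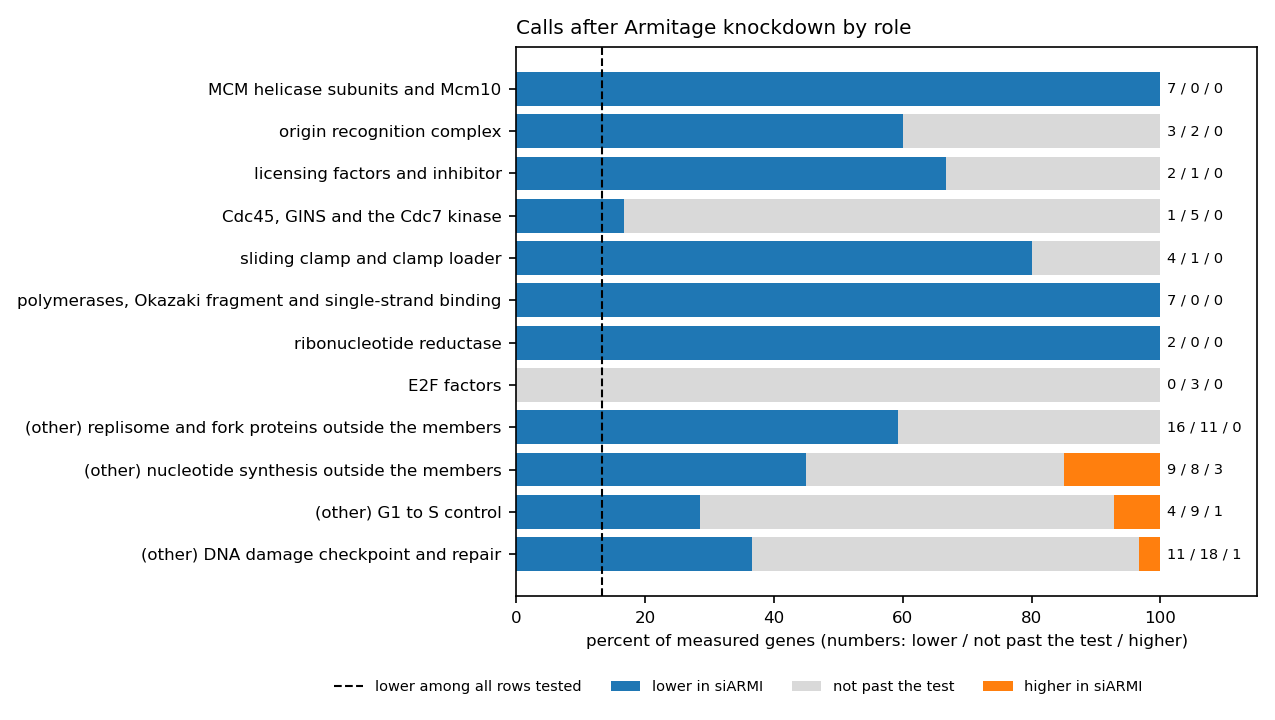
Share of measured genes called lower (blue), not past the test (grey) or called higher (orange) in siARMI against siLUC cells, for the 8 roles of the members and 4 further lists; the numbers give the counts and the dashed line marks the 13.4% of all rows called lower. The MCM, polymerase and ribonucleotide reductase bars are wholly blue, and the E2F bar is wholly grey.

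Exons of 19 members overlap those of another gene, in each case on the opposite strand (BDGP6.54). The libraries were made with a directional kit per the labels' protocols. Separate antisense rows for transposons such as rover imply that the strand was used in counting those. Whether the counting of genes used it is not stated in the sources used here, so these counts are less certain. Mcm10 shares 367 exonic bases with Ret, which rose by 3.57 ± 0.10 in the authors' deposited table, opposite to the fall of Mcm10. Psf3 shares 34.9% of its exonic bases with CG17841, which rose by 0.87 ± 0.11, and RfC38 shares 25.2% with Nup160, which fell at −0.34 ± 0.08 in the authors' deposited table. E2f2 shares 19.9% with Mpp6, which rose by 0.60 ± 0.23 in the authors' deposited table, and Mcm7 shares 81.7% with an antisense RNA gene that had no row. Without these 5 members, each sharing at least 10% of its exonic bases, an alternative chosen after seeing the data, 23 of 33 fell and 0 rose.

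After Yb knockdown no member was called. Of the 38 members 0 passed in either direction in the authors' deposited siYB table, also at an unadjusted p under 0.05, and their unadjusted p-values ran from 0.562 to 0.988 with a median of 0.804. Over all 8478 rows tested 0.0472% were called lower and 0.142% higher, or 0.189% in either direction, so a count of 0 is near that background and says little about the members. At an unadjusted p under 0.05 the shares were 0.236% lower and 0.543% higher. At an adjusted p under 0.01 0 members were called, where the shares of all rows were 0.0354% lower and 0.130% higher. At 0.1 0 members were called, against 0.0472% and 0.153% of all rows. Where a size of 0.5 was also required it was 0, against 0.0236% and 0.130%. With no unadjusted p under 0.562, these further counts were fixed at 0 and add nothing. The 4 rows called lower in the authors' deposited siYB table were fs(1)Yb, NetA and the antisense rows of the transposons rover and gypsy5. The 12 called higher were the genes ex, Ret, TM4SF and His2B:CG33902 and the transposons mdg1, 297, Tabor, Stalker2, blood, 412, Quasimodo and Stalker. The median unadjusted p over the 8367 rows shared by both tables was 0.727 in the authors' deposited siYB table. The authors' fold changes of all members were shrunk to about 0 there, as were those of 8458 rows in all, and give no size. Errors of the 22 siYB rows not shrunk ran from 0.46 to 1.82, against 0.07 to 0.26 for the members in siARMI cells. Whether falls of the siARMI size could have passed in siYB cells was not tested, so the 0 shows no difference between the knockdowns.

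A size could be had indirectly. The labels give a single set of siLUC libraries. If both tables used it, the siLUC level from the siARMI table and the mean count in the siYB table imply a siYB level, after the tables are put on 1 scale by their median ratio. For the 22 rows not shrunk to 0 the implied log2 fold change differed from that of the authors' deposited table by a median of 0.14 and at most 0.91. The largest gap was that of antisense rover, implied at −1.56 against −2.47, and the targeted gene fs(1)Yb was implied at −1.54 against −2.17 in the authors' deposited table. For ex, which is known to act in the Hippo pathway, both were 2.23.

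The implied siYB changes of the members had a median of −0.04 log2 units, with 27 of 38 below 0. Of the 8367 rows with a p-value in each comparison, 3891 were implied below 0. Among the 4185 of these rows at or above their median count it was 2092, as the scale was set on them. The implied changes of the members ran from −0.25 for E2f1 to 0.27 for Psf2. The median gap of 0.14 in the check above is of similar size. Both rows lower in that check were implied nearer 0 than deposited, so the size of falls is uncertain. Over the more abundant rows, those not under the median count, the middle 95% of implied values ran from −0.35 to 0.44, and 0 members fell below that range. The lower quartile of those rows was −0.08 and the upper 0.08; 14 members lay below the lower quartile and 7 above the upper. None of these values has an error, and no test was made.

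By role the implied siYB values lay lowest for MCM and ribonucleotide reductase, with medians of −0.13 and −0.12. Mcm3 was at −0.21 implied after Yb knockdown and −0.70 deposited after Armitage knockdown, RfC4 at −0.19 implied and −0.67 deposited, dup at −0.19 implied and −0.54 deposited, and RnrS at −0.13 implied and −0.68 deposited (siARMI values from the authors' deposited table). Dp was at 0.08 implied after Yb knockdown and −0.00 after Armitage knockdown, and E2f1 at −0.25 implied after Yb knockdown and −0.09 after Armitage knockdown (siARMI values from the authors' deposited table). The implied mean normalised count of Mcm2 was 2170 in siYB cells and 2375 in siLUC cells, and that of PCNA was 1855 in siYB cells and 2040 in siLUC cells. Both comparisons are taken to share the siLUC libraries, and the implied siYB value is built from the siARMI table as well. The values are therefore not independent, and their likeness is not a result.

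**Figure D4:**
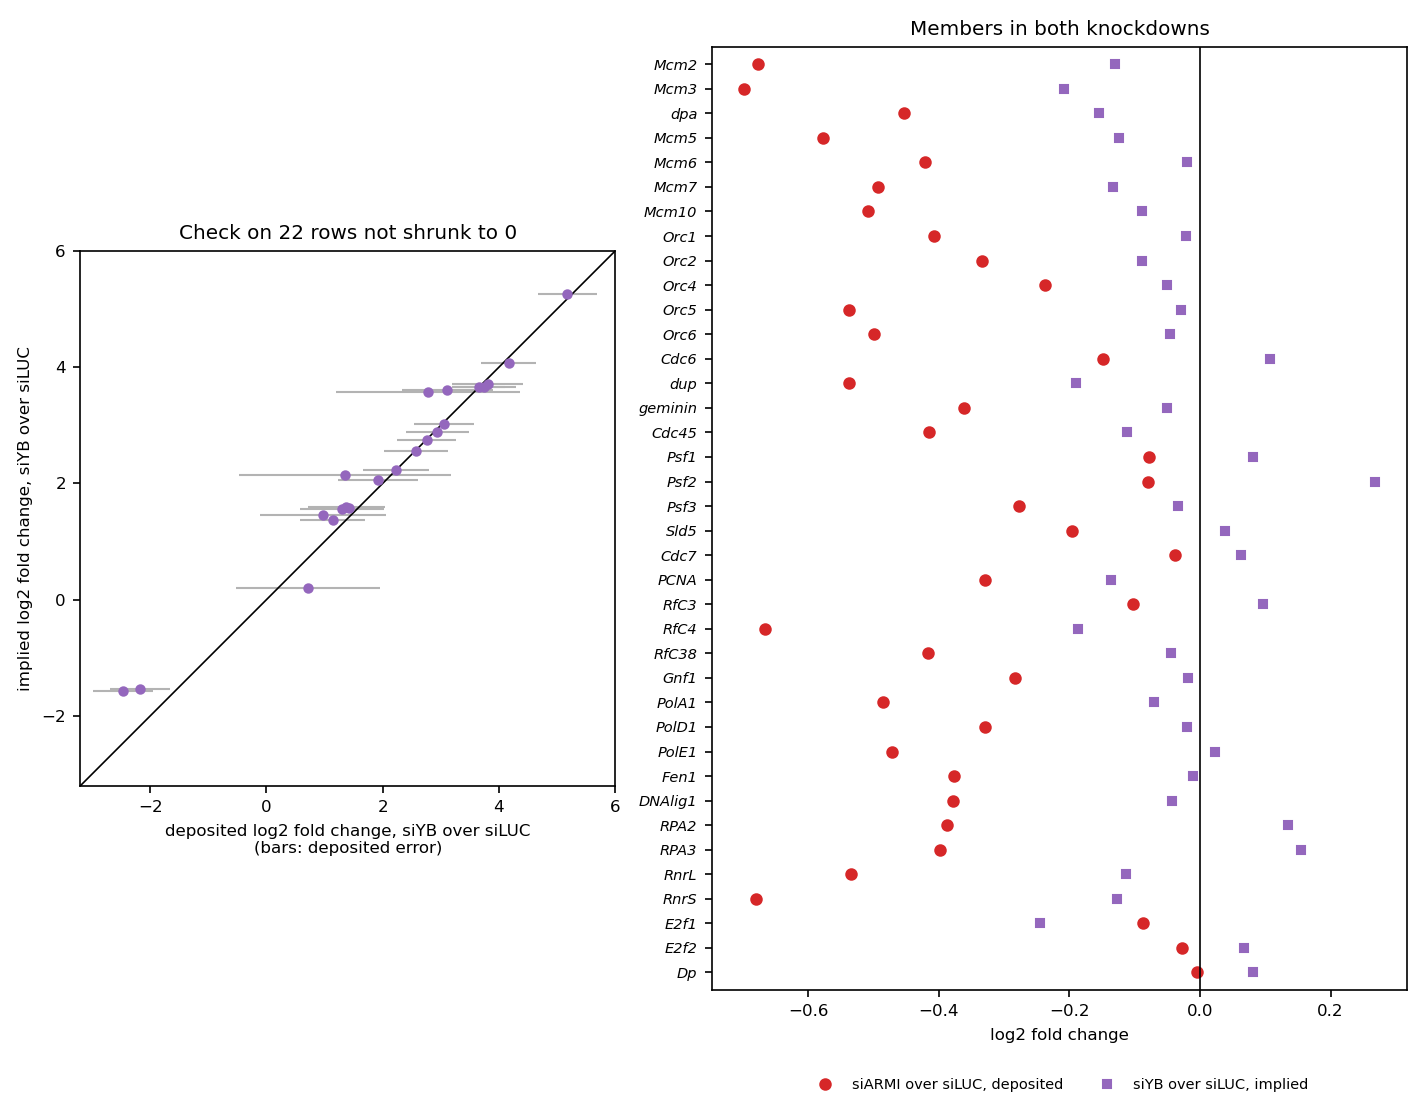
Left, implied against deposited log2 fold change in siYB over siLUC cells for the 22 rows not shrunk to 0, with the deposited error and the line of equality. Right, log2 fold change of the 38 members in siARMI over siLUC cells (red circles, deposited) and in siYB over siLUC cells (purple squares, implied, with no error); the red points reach −0.70 and the purple ones lie between −0.25 and 0.27.

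By implied level per kilobase PCNA was highest and Psf3 lowest of the members in siARMI and siLUC cells. The place of Psf3 rests on its longest annotated transcript of 2380 bases, against 692 to 831 for the other GINS genes. Before division by length its implied siLUC level was 133, against 53.8 to 70.1 for those genes. Which transcript was expressed was not tested. The next below PCNA in siLUC cells were RnrS at 640 in siARMI cells and 1025 in siLUC cells, geminin at 741 in siARMI cells and 952 in siLUC cells, and RnrL at 626 in siARMI cells and 907 in siLUC cells. The GINS genes ranged from 46.2 to 79.8 in siARMI cells and from 56.0 to 84.3 in siLUC cells, and the ORC genes from 47.7 to 141 in siARMI cells and from 67.4 to 183 in siLUC cells. PCNA stood 32.9 times above the lowest member in siARMI cells and 34.1 times in siLUC cells. Neighbours in this order could not be tested, since the levels have no error.

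**Figure D5:**
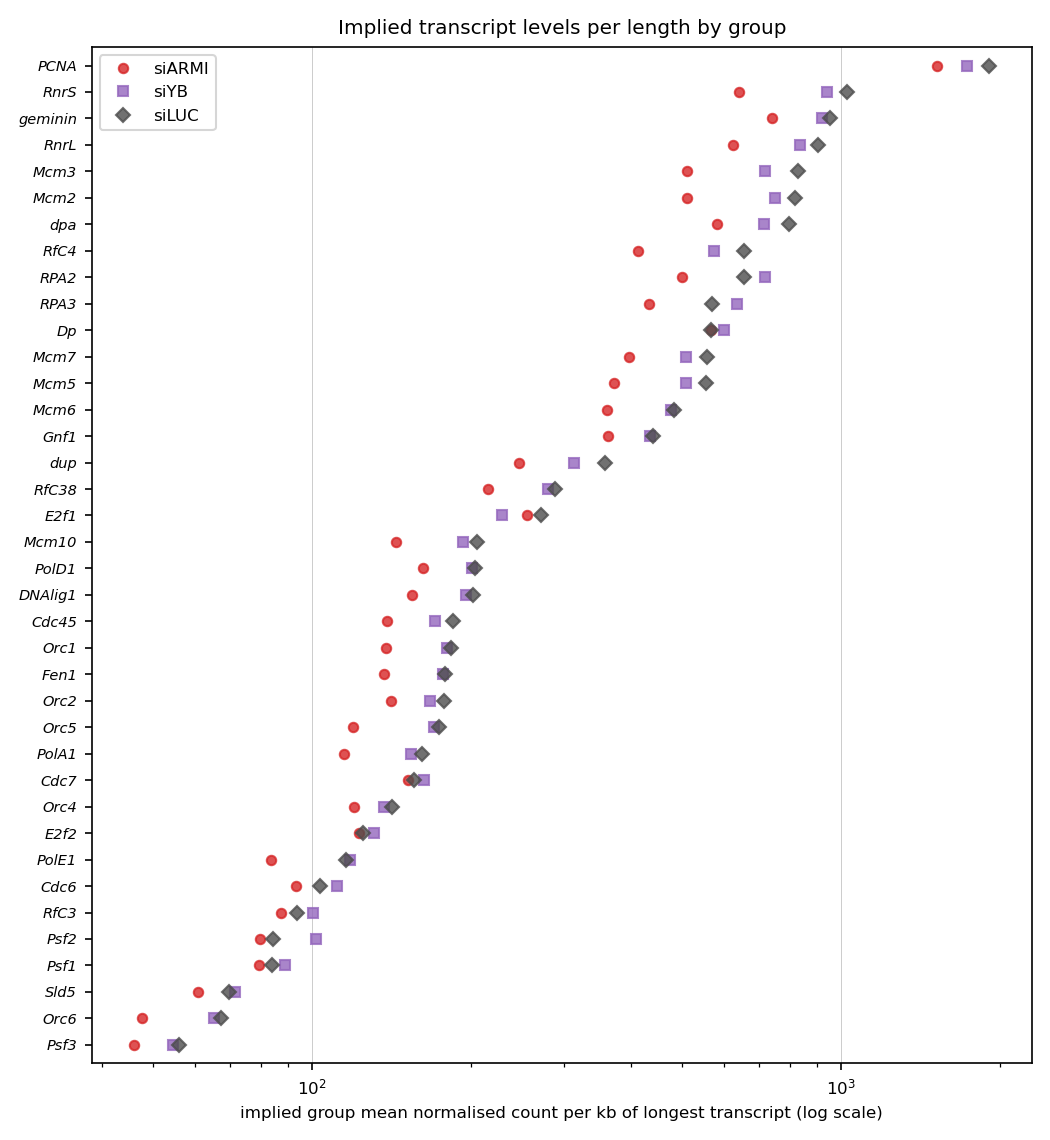
Implied group mean normalised count per kilobase of the longest annotated transcript (log axis) for the 38 members in siARMI (red), siYB (purple) and siLUC (grey) cells, ordered by the siLUC level. The siARMI point is left of the siLUC point for each member, by least for Dp.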

How the data were processed

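Members and gene lists were chosen with earlier results of these data known. For 8 listed genes, none of them a member, the name used in the tables was looked up under a synonym. The authors deposited 2 tables of results. Per the file headers they hold a mean normalised count signal over both groups, a log2 fold change and its error, and a p-value with its adjusted p-value, under the column names of a DESeq2 result. The submitters' processing notes name DESeq2, edgeR, Salmon 1.7.0, STAR, Bowtie and HOMER without roles; for the build, annotation and filters nothing is stated in these sources. Most of the authors' siYB log2 values lie at about 0 with errors under 0.01, which was read as shrinkage. The siARMI values may be shrunk as well, mostly where counts are low. The gene osk was called at 1.29 ± 1.43, an error larger than its value. Orc6 had an unadjusted p under 0.05, though its 95% interval ran from −1.01 to 0.01. Levels and intervals built from such values would lie too near no change. The sign was read as knockdown over siLUC from the targeted genes. A call is an adjusted p-value under 0.05 in the authors' deposited table (Benjamini-Hochberg, recomputed to within 3.64e-14). The tables hold no counts per library, so no count test was run and depth per library is unknown. The p-values measure the spread between these libraries, which may be technical.

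Intervals are the log2 fold change ± 1.96 errors. Group levels follow from the mean and the ratio, the siYB level from both tables scaled by 0.269, the median over 4185 rows. Steps were tested on simulated data (Python 3.11.15, numpy 2.4.6, pandas 2.3.3, scipy 1.17.1). Every member was to be named, with the up to 4 called genes of largest absolute log2 fold change per further list and every row called in the siYB table. Alternatives concerned the threshold, adjustment, filter and p-value. Planned comparisons of promoter motifs and proteins, and the 4 libraries of 4-thiouridine pulldown and input, were not analysed here.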

Additional observations from a re-analysis of the deposited data

How the results depend on the processing

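The count of members called lower in siARMI cells (26) was 23 at an adjusted p under 0.01 and under Benjamini-Yekutieli adjustment, where Orc2, Fen1 and RPA3 no longer passed. It was 27 at 0.1, where Orc6 passed. The number called lower was 26 with p adjusted over gene rows only, or over rows at or above the lower quartile of the count. With the normal p of the fold change over its error it was 26. With exact symbols it was also 26, which was fixed, since no member was looked up under a synonym. Background shares called lower were 9.54% at 0.01 and 16.5% at 0.1. They were not computed for the Benjamini-Yekutieli, gene-row, lower-quartile and normal p settings, so the counts there have no background. When a log2 fold change of −0.5 or lower was required in addition, the number called lower was 9, against 6.01% of all rows. This keeps only larger changes. In each of these 8 alternatives 0 members were called higher, as all estimates lay below 0. In siYB cells 0 were called in each. That was fixed beforehand, with unadjusted p-values of at least 0.562 and sizes shrunk to about 0 in the authors' deposited table. The median log2 fold change of the members was between −0.41 and −0.39 under the alternatives run. These concerned filters on the count, exact symbols and subtraction of the median of all gene rows. A mean weighted by the inverse squared error was −0.42. The median implied siYB value was −0.06 with the scale from all rows. It was −0.04 with that from rows with an unadjusted p above 0.5 in both tables. No paired analysis was possible because the tables hold no values per library. For the same reason leaving out replicates and TMM normalisation were not run, and the motif windows were not run as no promoter sequence was used here. Depth per library is unknown, and precision was lowest for the GINS genes, Orc6 and RfC3, with errors from 0.18 to 0.26.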

Other observations

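Genes of the DNA damage checkpoint and repair, many of which act on replication forks, were lower in part after Armitage knockdown. Of 30 measured genes 11 fell, 18 did not pass and 1 rose, with a median log2 fold change of −0.28 (the authors' deposited table), where 13.4% of all rows were called lower. The leading falls were those of rad50, which encodes part of the complex that senses double-strand breaks, at −0.80 ± 0.14, XRCC1, a scaffold of single-strand break repair, at −0.76 ± 0.10, the exonuclease gene tos at −0.73 ± 0.18 and Irbp, the fly Ku70, at −0.65 ± 0.11 in the authors' deposited table. The partners of rad50, named after their values were seen, fell too, mre11 at −0.61 ± 0.11 and nbs at −0.46 ± 0.13 in the authors' deposited table. The gene that rose was grp, the fly Chk1 kinase, at 0.38 ± 0.08 (adjusted p = 4.95e-06, Benjamini-Hochberg, the authors' deposited table). After Yb knockdown 0 of the 30 passed, also at an unadjusted p under 0.05 (the authors' deposited table), where 0.189% of all rows were called, so this count is near the background.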
